A study of Cyprinodon variegatus with 4 samples.

Results

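Contigs named for the respiratory chain subunits that mitochondrial DNA encodes were examined in RNA of whole sheepshead minnow larvae (Cyprinodon variegatus, a small estuarine fish). They were chosen by gene name, as every contig whose name began, in either case, with MT-ND, MT-CO, MT-CYB or MT-ATP, and 12 of 257521 contigs qualified. The study held 4 libraries, 1 per group. The groups were larvae with no treatment (untreated control), larvae given the surfactant Tween 80 at 0.001% (the surfactant control, called Tween control here), and larvae given microfibres of polyethylene terephthalate, a polyester, at 10 mg/L (PET 10) and 100 mg/L (PET 100). Exposure lasted 10 days and, as read from the labels, began 72 h after fertilization. Whether the fibre suspensions also held Tween 80, and how many larvae made up a library, are not given in the sources used here. With 1 library per group, no difference below has a replicate check and no p-value was computed, so every value compares libraries. The table's column taken as PET 100 spells the fibre "pel", and the numbers that end its column names, which differ between libraries, are not explained in the sources used here.

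Mitochondria keep a small circular genome of their own, which is read as long precursor RNAs and then cut into single transcripts. Its protein genes all encode subunits of oxidative phosphorylation: the ND subunits of complex I (NADH dehydrogenase), cytochrome b of complex III, CO1 to CO3 of complex IV (cytochrome c oxidase, which passes electrons to oxygen), and ATP6 and ATP8 of the ATP synthase. All other subunits of these complexes come from nuclear genes, so both genomes supply the parts of 1 machine, and muscle is among the tissues richest in it.

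Values were FPKM, fragments scaled to contig length and to library size, which sets contigs on a scale per length. The FPKM of a library summed to between 1039707 and 1080208. Read counts were not used here, so the absolute depth and the counting error are unknown. From the steps between low values, the depth relative to the untreated control was estimated at 78.5% in the Tween control, 84.1% in PET 10 and 79.6% in PET 100. This estimate was not checked. Contigs above 0 numbered 150173 in the untreated control, 143907 in the Tween control, 151673 in PET 10 and 152374 in PET 100, a different order. Summed markers of skeletal muscle, lens, liver, skin, neurons, photoreceptors, exocrine pancreas and heart were above 0 in every library. Of the red blood cell markers, 1 of 2 was matched, at 2.18, 1.11, 0.72 and 0.78 FPKM in the order untreated control, Tween control, PET 10 and PET 100. Fewer cells of a type and less RNA per cell cannot be told apart in such RNA.

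The names covered 7 of the 13 subunits that vertebrate mitochondrial DNA encodes, and no contig was matched to ND3, ND4, ND5, ND6, CO2 or ATP8. CO1 had 4 contigs, CO3 and cytochrome b had 2 each, and ND1, ND2, ND4L and ATP6 had 1 each. The 12 contigs cited 12 different Swiss-Prot entries as their match. Of them, 5 were above 0 in all 4 libraries, 4 were above 0 in some and 3 were listed at 0 throughout. The same 5 were the ones averaging 1 FPKM or more. These are TR101539|c6_g1_i1 (mt-co1), TR101539|c7_g1_i1 (mt-co3), TR203087|c1_g1_i1 (MT-ND2), TR72591|c2_g1_i1 (MT-ND1) and TR76334|c0_g1_i1 (mt-cyb), called CO1, CO3, ND2, ND1 and CYB below. The CO1 and CO3 contigs carry the same assembly cluster number. Where in the genome the contigs lie is not given, and no sequence of them was used here.

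The cytochrome c oxidase transcripts were among the most abundant in the larvae and differed little between libraries. CO1, which holds the site where oxygen is reduced, was at 13263 FPKM in the untreated control, 14881 in the Tween control, 15077 in PET 10 and 14557.5 in PET 100. By its mean it ranked 2 among all contigs and 1 among the 24404 annotated ones. The untreated control was lowest, and the highest library was 1.14-fold above it. CO3, another core subunit of the same enzyme, was at 7121, 8289, 7884 and 7314 FPKM in the same order and ranked 12 among all contigs. Its untreated control was again lowest, the Tween control was highest, and the spread was 1.16-fold. In PET 100 against the Tween control, the log2 ratio was -0.03 for CO1 and -0.18 for CO3. In PET 10 against the Tween control it was 0.02 for CO1 and -0.07 for CO3. Against the untreated control, the log2 ratio in PET 100 was 0.13 for CO1 and 0.04 for CO3 as deposited. Median-of-ratios scaling shifts log2 ratios of PET 100 to the Tween control by -0.14 and to the untreated control by -0.17. For low contigs such as CYB the shift is smaller because of the pseudocount. It moved the ratios of CO1 and CO3 to the untreated control to -0.03 and -0.13, so no direction is given for them. The sign of CO1 in PET 10 against the Tween control also turned, to -0.02.

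ND2 and ND1, the only contigs above 0 named for mitochondrially encoded complex I subunits, were lowest in PET 100. So were 26.7% of all contigs averaging at least 100 FPKM, by values as deposited. ND2, a membrane subunit of the proton-pumping arm, was at 1061 FPKM in the untreated control, 1313 in the Tween control, 1093 in PET 10 and 664 in PET 100. The Tween control was the highest library, the untreated control and PET 10 lay close together between, and PET 100 stood below all of them. ND1, a membrane subunit at the junction with the matrix arm, was at 188, 270, 302 and 163 FPKM in that order. Its highest value was in PET 10 and its lowest in PET 100, with the untreated control close to the lowest. The log2 ratio in PET 100 against the Tween control was -0.98 for ND2 and -0.73 for ND1. Against the untreated control it was -0.68 for ND2 and -0.21 for ND1, so the size of the difference from the libraries without fibres depended on which of them was used. Against PET 10 it was -0.72 for ND2 and -0.89 for ND1.

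The main contig named for cytochrome b, the only mitochondrially encoded subunit of complex III, had the same lowest library at a far lower level. CYB was at 3.19 FPKM in the untreated control, 5.44 in the Tween control, 3.93 in PET 10 and 2.51 in PET 100. As with ND2, the Tween control was highest and PET 100 lowest. Its log2 ratio in PET 100 was -0.98 against the Tween control and -0.29 against the untreated control. At this level a few fragments can move a value. CYB stood at 0.0172% of the CO1 level in PET 100 and 0.0366% in the Tween control. Whether this contig is a full transcript, a fragment or a copy in the nuclear genome was not tested. Its level may therefore not be that of the gene. The same was not tested for the ND2 and ND1 contigs either.

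**Figure D1:**
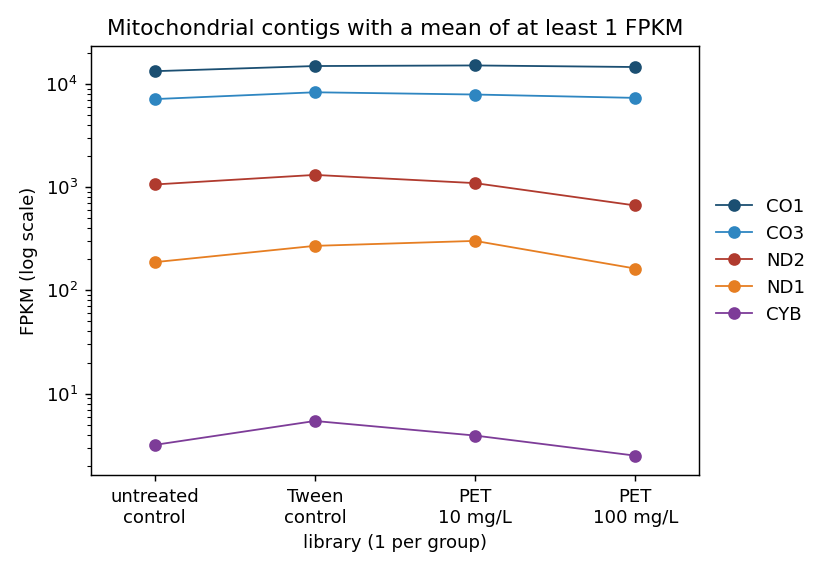
FPKM (log axis) of the 5 contigs averaging at least 1 FPKM in each of the 4 libraries, 1 point per library, with lines joining points of 1 contig. CO1 and CO3 run nearly flat, while ND2, ND1 and CYB are lowest at PET 100, at 664, 163 and 2.51 FPKM.

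By a 2-fold threshold on FPKM plus 0.5, none of the 5 contigs averaging at least 1 FPKM was past it in any of the 6 comparisons. In PET 100 against the Tween control, 15.9% of the 45298 contigs above that mean were past 2-fold. In PET 10 against the Tween control 15.5% were. For PET 10 and PET 100 against the untreated control the shares were 15.0% and 15.3%, for PET 100 against PET 10 it was 15.4%, and for the Tween control against the untreated control it was 14.5%. ND2 and CYB lay just short of the threshold in PET 100 against the Tween control. After median-of-ratios scaling both were past it, at -1.12 for ND2 and -1.10 for CYB, and with a pseudocount of 0.1 CYB was at -1.09.

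Most of those 45298 contigs have low values, where ratios spread widely. Among the 830 contigs averaging at least 100 FPKM, a group chosen after the data were seen, 3.98% differed by at least 1.5-fold between PET 100 and the Tween control, and 2.77% of the 830 were lower. Their log2 ratios ran from -0.40 at the 5th to 0.42 at the 95th percentile. ND2 and ND1 were among the 23 lower contigs, and CO1 and CO3 were not, so 2 of the 4 mitochondrial contigs at that level were called. By the same rule 2 of the 4, again ND2 and ND1, were lower in PET 100 than in PET 10 (background 2.05%, or 3.13% in either direction), and ND2 alone was lower than in the untreated control (background 2.29%, or 5.30% in either direction). Between libraries other than PET 100, ND1 was higher in PET 10 than in the untreated control, with a log2 ratio of 0.68 (background 2.41%, or 3.61% in either direction). Of these 4 contigs, none was past 1.5-fold for PET 10 against the Tween control (background 2.05%) or for the Tween control against the untreated control (background 2.53%). Between those 2 libraries without fibres, ND1 still had a log2 ratio of 0.52, above the 95th percentile of 0.37 among the 830. ND2, CO1 and CO3 were below that percentile.

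Levels were also set against CO1 within each library, which removes any scaling between libraries. ND2 stood at 8.0% of CO1 in the untreated control, 8.83% in the Tween control, 7.25% in PET 10 and 4.56% in PET 100. ND1 stood at 1.41%, 1.81%, 2.0% and 1.12% in the same order. Both were thus lowest in PET 100 relative to CO1 too, which the 1.14-fold spread of CO1 could not have changed. CO3 stood at 53.7%, 55.7%, 52.3% and 50.2%, a far narrower range. The ratio of ND2 to CO1 in PET 100 was 0.517 of that in the Tween control and 0.570 of that in the untreated control, and the ratio of ND1 to CO1 was 0.616 and 0.790 of theirs. Contigs named for genes of the same mitochondrial genome thus differed unequally between libraries.

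**Figure D2:**
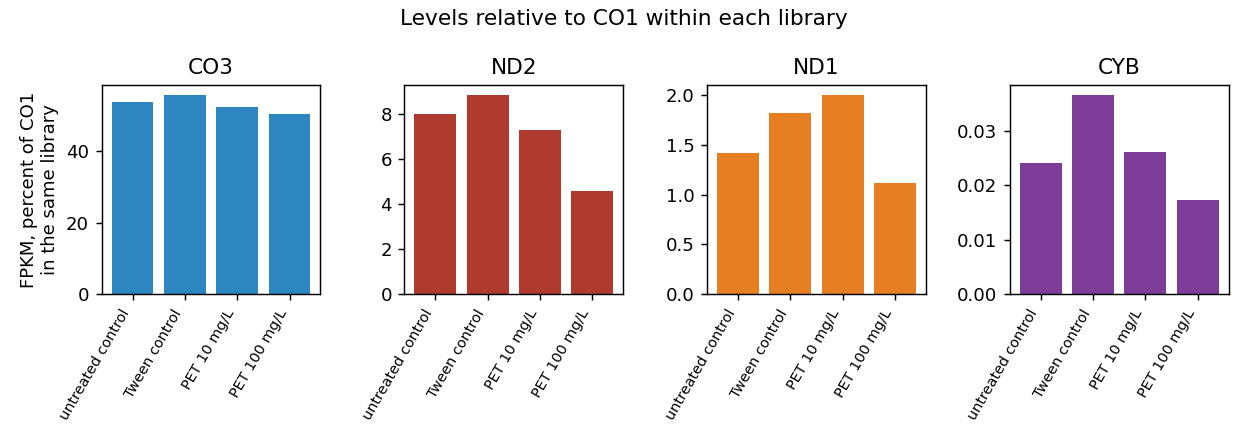
FPKM of CO3, ND2, ND1 and CYB as a percent of CO1 in the same library, 1 bar per library, with a separate axis from 0 for each contig. The ND2 bar at PET 100 stands at 4.56%, against 8.83% in the Tween control, whereas the CO3 bars stay between 50.2% and 55.7%.

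The other 7 contigs had little or no signal. A second cytochrome b contig (TR213943|c0_g1_i1, MT-CYB) and a second CO1 contig (TR29291|c0_g1_i1, mt-co1) were each at 0.93 FPKM in PET 10 and listed at 0 in the other libraries. The ATP6 contig (TR178504|c0_g1_i1), named for the proton channel subunit of the ATP synthase, was at 2.43 FPKM in PET 10 and likewise listed at 0 elsewhere. A further CO1 contig (TR199226|c0_g1_i1) was at 0.68 FPKM in PET 10 and 0.40 in the untreated control, and listed at 0 elsewhere. PET 10 was therefore the only library in which all 4 of these contigs were above 0. Of the 12 contigs, 3 were above 0 in PET 10 alone, and 0 were above 0 in any other library alone. Over the whole table, 6.55% of contigs were above 0 in PET 10 alone, 6.54% in PET 100 alone, 5.49% in the Tween control alone and 6.21% in the untreated control alone. The Swiss-Prot entries cited by the MT-CYB and MT-ATP6 contigs are those of the human proteins, and whether either contig is of the fish was not tested. The contigs of ND4L (TR89292|c0_g1_i1), a small membrane subunit of complex I, of a second CO3 (TR51574|c0_g1_i1) and of the last CO1 (TR88243|c0_g1_i1) were listed at 0 in all libraries.

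Summing contigs by description altered the levels little, except for cytochrome b in PET 10. Cytochrome b over its 2 contigs was at 3.19 FPKM in the untreated control, 5.44 in the Tween control, 4.86 in PET 10 and 2.51 in PET 100. Its log2 ratio in PET 10 was -0.15 against the Tween control and 0.54 against the untreated control as a sum, and -0.42 and 0.26 by the main contig. CO1 over 4 contigs was at 13263, 14881, 15079 and 14557.5 FPKM, and CO3 over 2 at the values of its main contig. All 12 contigs together summed to 21636, 24759, 24365 and 22701 FPKM, which is 2.08%, 2.32%, 2.26% and 2.15% of a library. CO1 and CO3 made up between 93.6% and 96.3% of that sum, the highest share being in PET 100. The log2 ratio of the sum was -0.13 in PET 100 and -0.02 in PET 10 against the Tween control, and 0.19 for the Tween control against the untreated control. After median-of-ratios scaling it was -0.27 in PET 100 against the Tween control. As deposited, the log2 ratio of the sum in PET 100 against the Tween control was smaller in size than those of ND2 (-0.98) and ND1 (-0.73). Of the difference between 22701 and 24759 in the sum, CO3 at 7314 FPKM against 8289 made up the largest part. ND2 at 664 against 1313, CO1 at 14557.5 against 14881 and ND1 at 163 against 270 made up smaller parts.

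Of the 137 nuclear list contigs averaging at least 1 FPKM, 2 had a lower log2 ratio in PET 100 against the Tween control than ND1, both minor contigs of their gene and at low levels. These were one of Ndufs6 and one of MTERFD2, the MTERFD2 contig at -0.79 with 0.97 FPKM in PET 100 and 2.05 in the Tween control. One of supv3l1, a mitochondrial RNA helicase, was close to ND1 at -0.71, with 0.89 FPKM in PET 100 and 1.77 in the Tween control. Among main contigs the lowest was Pde12 at -0.62, with 2.06 FPKM in PET 100 and 3.44 in the Tween control. These contigs were named after their values were seen. Of the nuclear complex I list, 32 contigs of 27 subunits had a mean of at least 1 FPKM. In PET 100 against the Tween control 1 was past 2-fold higher and 1 lower, with a median log2 ratio of -0.02, beside 0.10 over all 45298 contigs and 0.00 over the 830 with high values. Those past it were minor contigs. That of NDUFA6 was at 1.69 FPKM in PET 100 and 0.51 in the Tween control, and that of Ndufs6 was listed at 0 in PET 100 and at 1.47 in the Tween control. Summed over its contigs, NDUFA6 was at 102 FPKM in PET 100 and 107 in the Tween control, and Ndufs6 at 76.5 in PET 100 and 88.0 in the Tween control. The most abundant, NDUFB2 (an accessory subunit), was at 404, 506, 544 and 379 FPKM in the order untreated control, Tween control, PET 10 and PET 100. That is the library order of ND1, with a log2 ratio of -0.42 in PET 100 against the Tween control. Ndufb4 was at 270.4 FPKM in PET 100 against 281 in the Tween control, and NDUFA5 at 226 in PET 100 against 264 in the Tween control.

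For complex III, 4 contigs of 3 subunits were measured and none was past 2-fold in PET 100 against the Tween control, with a median log2 ratio of -0.07. Uqcrc1, a core protein, was at 219.6 FPKM in PET 100 against 206 in the Tween control, UQCRC2 at 144.5 against 154, and Uqcr11 at 137 against 141. For complex IV, 7 contigs of 5 subunits had a median of -0.03 in PET 100 against the Tween control, and none was past 2-fold in that comparison. COX5A was at 615 FPKM in PET 100 against 678 in the Tween control, COX8A at 349.99 against 356 and Cox6b1 at 226 against 217. COX5B was listed at 0 in the untreated control and at 2.38, 3.47 and 3.51 FPKM in the Tween control, in PET 10 and in PET 100. For complex V, 12 contigs of 10 subunits had a median of -0.03 in PET 100 against the Tween control, and none was past 2-fold in that comparison. The catalytic beta subunit atp5b was at 1362 FPKM in PET 100 against 1394 in the Tween control, and ATP5F1 at 627 against 685. ATP5G3, of the rotating ring, was at 618.5 FPKM in PET 100, against 851 in the Tween control and 914 in the untreated control. A second atp5b contig was at 605 FPKM in PET 100 against 839 in the Tween control, a log2 ratio of -0.47. One contig of atp5C1, the gamma subunit, was at 6.25 FPKM in PET 10 and listed at 0 in the Tween control, while its main contig was at 1.60 in PET 10 and 2.31 in the Tween control. Summed over contigs, atp5C1 was at 9.27 FPKM in PET 10 and 3.46 in the Tween control, a ratio of 2.68. The atp5C1 and COX5B contigs were far below those of atp5b and COX5A. Whether they hold the main transcript of their gene was not tested. Complex II, which holds no mitochondrially encoded subunit, had 3 contigs by name and none above the mean of 1 FPKM. Summed over all list contigs, the ratio of PET 100 to the Tween control was 0.952 for complex I, 0.997 for III, 0.944 for IV and 0.926 for V. The same ratio for the sum of the 12 mitochondrial contigs was 0.917. Complex II summed to 0.53 FPKM in PET 100 and 1.29 in the Tween control.

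The other lists hold nuclear proteins that assemble the complexes or that copy, read, process and translate mitochondrial nucleic acids. Over all 9 lists, 137 contigs had a mean of at least 1 FPKM. In PET 100 against the Tween control 2 were past 2-fold higher and 1 lower, or 2.19%, beside 15.9% over all contigs above that mean. With a mean of at least 5 FPKM, 4.37% of all contigs and 0 list contigs were past it. These shares depend on level, and no background matched for level was computed. The median log2 ratio was 0.07 over 9 contigs of mitochondrial DNA replication and transcription, -0.08 over 14 of RNA processing and stability, 0.00 over 34 of mitochondrial ribosomal proteins and 0.09 over 25 assembly factors. The contig past 2-fold among these was trmt10c, a subunit of the enzyme that cuts mitochondrial transfer RNAs from the precursor. It was at 5.37 FPKM in PET 100, 5.10 in PET 10 and 2.17 in the Tween control, and at 5.96 in the untreated control. Both PET libraries thus lay near the untreated control, and the Tween control was the low one. LRPPRC, which stabilizes mitochondrial messenger RNAs, was at 11.6 FPKM in PET 100 against 11.2 in the Tween control, ptcd3 at 16.2 against 20.2 and HSD17B10 at 49.0 against 51.9. Of replication and transcription, RNASEH1 was at 11.35 FPKM in PET 100 against 10.8 in the Tween control, Mterfd2 at 5.32 against 4.07 and MGME1 at 3.02 against 4.03. Among mitochondrial ribosomal proteins, Mrpl12 was at 47.2 FPKM in PET 100 against 47.6 in the Tween control, mrpl15 at 40.5 against 40.6 and MRPL21 at 30.8 against 29.3. Of the assembly factors, Cox18 was at 28.2 FPKM in PET 100 against 27.4 in the Tween control, sdhaf2 at 27.97 against 26.8 and ttc19 at 24.8 against 27.04.

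**Figure D3:**
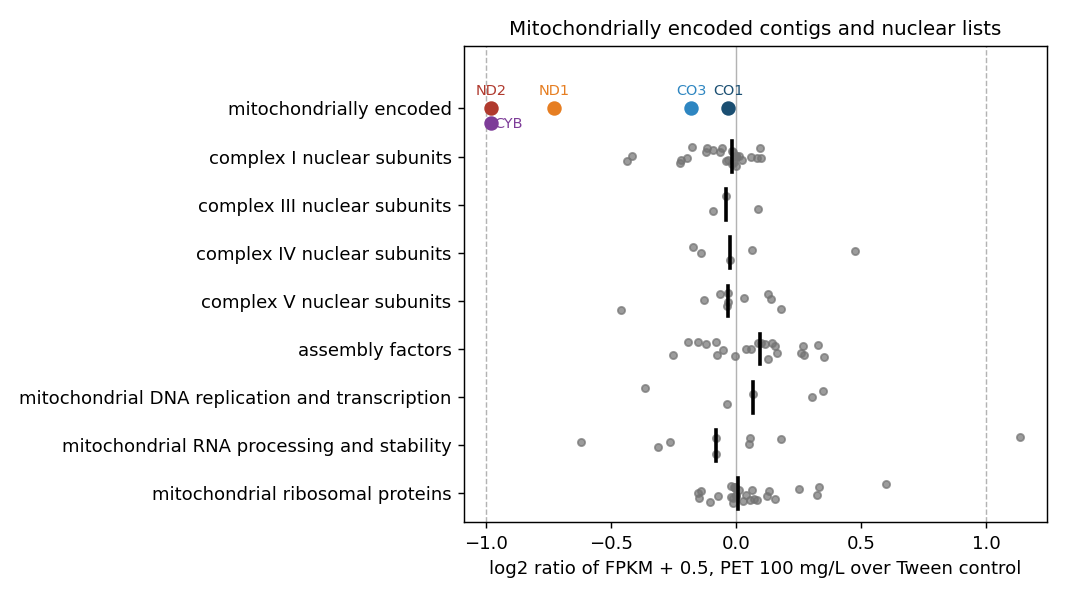
Log2 ratio of FPKM plus 0.5, PET 100 over Tween control. The top row holds the 5 contigs named for mitochondrially encoded subunits, with CYB set lower to be seen beside ND2. Grey points are the main contig of each measured gene of the nuclear lists, with black bars at the median of the points shown. Minor contigs are not drawn, and dashed lines mark 2-fold. ND2 and CYB at -0.98 and ND1 at -0.73 lie left of every grey point, while CO1 at -0.03 lies near the list medians.

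Other abundant contigs shared the library orders of ND1 and ND2. Of the 23 contigs averaging at least 100 FPKM that were at least 1.5-fold lower in PET 100 than in the Tween control, 9 besides ND1 had its order, highest in PET 10, then the Tween control, the untreated control and PET 100. That order was held by 10 of the 23, by 48 (5.78%) of the 830 and by 2.65% of the 45298 contigs averaging at least 1 FPKM. The 23 were chosen for a lower value in PET 100 than in the Tween control, which is part of the orders of ND1 and ND2. Their shares therefore cannot be read against those of the 830 and the 45298. Among the 9, TR118150|c1_g2_i5 and TR118150|c1_g2_i6 differ in name only by the last number. So do TR112021|c6_g5_i4 and TR112021|c6_g5_i1 among the 23. Each pair may therefore be versions of the same gene, counted separately here, which was not tested. Of the 9 besides ND1, 8 had no annotation and 1 was annotated as Nlrc3. Their log2 ratios in PET 100 against the Tween control ran from -3.75 to -0.77, all lower than that of ND1. The most abundant, TR65613|c0_g1_i1, was at 6326, 11319, 12797 and 3016 FPKM in the order untreated control, Tween control, PET 10 and PET 100. The order of ND2 was shared by 5 other contigs of the 23, of which 4 had no annotation, and was held by 33 (3.98%) of the 830. The annotated one was cathepsin L (CATL_SARPE), at 1001, 1201, 1024 and 729 FPKM. What the unannotated contigs are, and whether they and ND1 moved for a shared reason, was not tested. Summed skeletal muscle markers, 14 contigs of 4 genes, were at 7978 FPKM in PET 100 and 8890.45 in the Tween control, a ratio of 0.897, against 0.506 for ND2 and 0.603 for ND1 between the same libraries. Over the 9 marker lists that ratio ran from 0.703 in red blood cell to 1.22 in liver markers. The red blood cell ratio rests on 1 contig, at 0.78 FPKM in PET 100 and 1.11 in the Tween control. The next lowest was 0.886 in skin markers. The part of these tissues in the result was not tested.

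**Figure D4:**
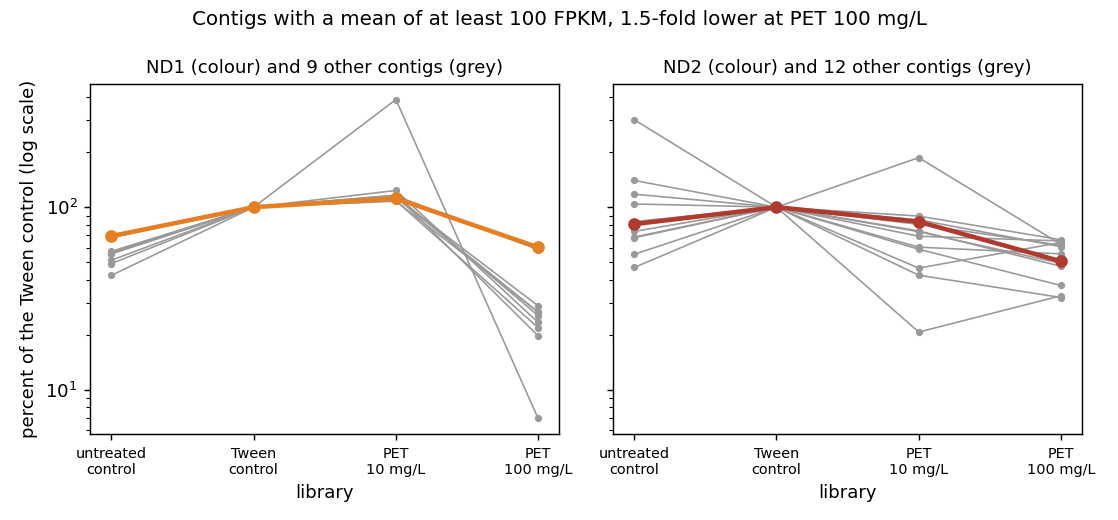
FPKM as a percent of the Tween control (log axis) for the 23 contigs averaging at least 100 FPKM that were at least 1.5-fold lower at PET 100 than in the Tween control, split into the 10 with the library order of ND1 (left) and the other 13 (right). ND1 and ND2 are drawn in colour, and 9 and 12 other contigs in grey; ND1 differs less than every grey contig of its panel at PET 100.

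Likeness in level across the 4 libraries was measured as the Euclidean distance between log2 profiles, each centred on its own mean, over 2729 annotated contigs averaging at least 10 FPKM. The 5 contigs nearest to CO1 were Gch1, TFAP2A, RPS25, Rpl23 and rps24, at distances from 0.010 to 0.025. Gch1 (GTP cyclohydrolase 1) was at 60.7, 68.8, 69.5 and 67.2 FPKM in the order untreated control, Tween control, PET 10 and PET 100, and RPS25, a cytosolic ribosomal protein, at 3080.05, 3468, 3564 and 3396. With 4 points per profile, the distances are a description only.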

How the data were processed

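RNA of whole larvae was measured in 4 libraries, 1 per group, grouped by the treatment label. Expression was deposited by the authors as FPKM, per the file headers, for 257521 contigs. Tools listed in the submitters' processing notes are RSEM, Bowtie and bcl2fastq 2.20.0.422. The sources used here do not give the assembler or the annotation method. Reads of transcripts that share sequence, such as nuclear copies of mitochondrial genes, may have been divided between contigs, and exact zeros can be failed estimates.

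No scaling was applied before the ratios, which are log2 of FPKM plus 0.5. The pseudocount understates the ratio of low contigs. A contig was called at 2-fold among the 45298 with a mean of at least 1 FPKM. Alternatives were pseudocounts of 0.1 and 1, median-of-ratios scaling, scaling each library to the same sum, no filter, a mean of at least 5 FPKM, members by description, and other ways of counting list contigs. The 9 nuclear lists (271 symbols) were matched by symbol, with or without the suffix a or b. Named list genes are the 3 most abundant per list and those past 2-fold by their main contig; minor contigs past 2-fold were named after their values were seen, as were the 1.5-fold counts, the levels relative to CO1, and the contigs sharing the orders of ND1 and ND2. For CO1 the nearest 5 profiles are named. Members and lists were chosen with earlier results of these data known. Computations ran in Python 3.11.15 with pandas 2.3.3 and numpy 2.4.6. The ratio and scaling code was checked on simulated libraries without noise, which tests its arithmetic and not the calls made here.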

Additional observations from a re-analysis of the deposited data

How the results depend on the processing

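FPKM holds no read counts, so absolute depth and counting error are unknown, and 1 library per group leaves every value without replicate error. No paired analysis was possible because each group held 1 library. A move of 0.1 in log2, a count changed by over 1.5 times, or a crossing of 2-fold was taken as a change. Of the 141 recomputed main results 107 did not change by that rule. Taking members by description could not change any, because the 1 contig it added was at 0 FPKM. Those results are counted among the 107, so that number overstates stability. A change of sign was counted only for log2 ratios past 2-fold, and no main log2 ratio was past it, so none could be counted. The summed contigs in PET 100 against the untreated control did change sign, from 0.07 as deposited to -0.10 after median-of-ratios scaling. Median-of-ratios scaling moved the log2 ratio of the summed contigs in PET 100 to -0.27 against the Tween control, -0.10 against the untreated control and -0.20 against PET 10, and the sum in PET 100 to 20974 FPKM; scaling each library to the same sum moved that in PET 10 to 22556. The count of mitochondrial contigs past 2-fold in PET 100 against the Tween control was 0, and was 1 with a pseudocount of 0.1 and 2 after median-of-ratios scaling. With no filter it was 4 for PET 10 against the Tween control, 3 for PET 10 against the untreated control and 4 for PET 100 against PET 10, all from contigs with a mean under 1 FPKM. ND2, ND1 and CYB were lower in PET 100 than in each other library under every pseudocount and scaling tried. They were so relative to CO1 too, with CYB at a low level throughout. A pseudocount cannot change which library is lower, and median-of-ratios scaling lowered each ratio of PET 100 for ND2, ND1 and CYB. The highest CO1 was 1.14-fold above the lowest, less than the difference of ND2, ND1 or CYB between PET 100 and any other library. Library sums differed less than CO1. These settings therefore could not change the direction, and no setting replaces a replicate.

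Counts of listed nuclear contigs past 2-fold were small and set by low values. They were 3 for each PET concentration against the Tween control, 4 for the Tween control against the untreated control, 3 for PET 10 and 2 for PET 100 against the untreated control, and 2 between the concentrations. With a mean of at least 5 FPKM there were 0 in each comparison. With no filter they were 25, 27, 25, 27, 26 and 19, in the order PET 10 and PET 100 against the Tween control, the Tween control, PET 10 and PET 100 against the untreated control, and PET 100 against PET 10. With 1 contig per annotation they were 1, 1, 2, 1, 1 and 0. With a pseudocount of 0.1 they were 6 and 5 for PET 10 and PET 100 against the Tween control and 5 for PET 10 against the untreated control. With a pseudocount of 1 there was 1 for PET 10 against the Tween control and 1 for PET 100 against the untreated control, where the count was also 1 with FPKM summed per annotation.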

Other observations

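The profiles nearest to ND2, by the same distance, were those of myadm, METTL7A, Nlrp14, cathepsin L and OCLN, at 0.144 to 0.229. The nearest to ND1 were MAP6, rpl10a, eif3a, PDCL3 and infB, at 0.094 to 0.241. The distance is not scaled to the spread of a profile, which was 1.14-fold for CO1 and 1.85-fold for ND1. Distances are therefore not compared between those contigs. Among all 7783 contigs averaging at least 10 FPKM, annotated or not, the nearest to ND1 was TR30401|c0_g1_i1, which had no annotation. It was at 238, 351, 404 and 205 FPKM in the order untreated control, Tween control, PET 10 and PET 100. OCLN (occludin, of tight junctions) was near both ND2 and CYB, at 16.9, 24.2, 16.5 and 11.7 FPKM in that order. These neighbours were listed after the data were seen.

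Contigs lowest in PET 100 of the 4 libraries made up 26.7% of the 830 with a mean of at least 100 FPKM and 15.7% of the 45298 with a mean of at least 1 FPKM. Contigs lowest in the untreated control, as CO1 and CO3 were by values as deposited, made up 36.9% and 26.9%. All these shares were computed on values as deposited and can change with scaling. After median-of-ratios scaling, CO1 and CO3 were lower in PET 100 than in the untreated control, at log2 ratios of -0.03 and -0.13.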
